A study of Mus musculus with 6 samples.

Results

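The genes described here belong to the phosphoinositide 3-kinase (PI3K) and Akt pathway and its lipid phosphatases: Pik3cd, Pik3ca, Pik3r1, Pik3ap1, Inpp5d, Akt1, Akt2, Foxo3 and Mtor. They were taken by name, and a probe set counted for a gene when the platform annotation gave it exactly 1 symbol. Of these 9 genes, 8 had such a probe set, 1 each, among the 17372 genes that could be named this way in the table. Foxo3 was not analysed here, because its probe set also carries the symbol of another gene. RNA was measured on Affymetrix mouse genome expression arrays in pre-B cells, sorted from bone marrow as B220+IgM-CD43- cells of mice aged 9 months. The 3 Mef2c-deficient arrays came from Vav-Cre Mef2cfl/fl mice, in which the Vav promoter drives Cre throughout blood-forming cells, so Mef2c, a MADS-box transcription factor gene, is lost long before the pre-B-cell stage. Levels of Mef2c were not analysed here, and the genotype labels were taken as given. The 3 other arrays came from mice labelled control. Per the study's methods, controls were Mef2cfl/fl, Mef2cfl/+ or Vav-Cre Mef2cfl/+ animals of matched age, and the labels do not say which applies to each array, so some controls may carry Cre and a single deleted allele. The samples are called independent without naming the animals, so p-values measure the spread between these samples only. In sorted bulk RNA, fewer cells of a type and less RNA per cell cannot be told apart.

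PI3K is a lipid kinase recruited to the plasma membrane by activated receptors, where a catalytic subunit held by a regulatory subunit phosphorylates phosphatidylinositol lipids. The lipid it makes draws Akt kinases to the membrane, and Akt then restrains FoxO transcription factors and promotes activity of the mTOR kinase. Phosphatases such as the product of Inpp5d remove the signal from the lipid. In pre-B cells the pathway lies downstream of the pre-B-cell receptor and the interleukin 7 receptor, and FoxO factors that escape Akt promote transcription of the recombinase genes needed for light chain rearrangement.

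All levels below are log2 of the deposited value, and all differences are Mef2c-deficient minus control on that scale. The base of the deposited scale is not settled: the highest value is 21.03 as log2 and 14.58 as a natural log. If the values are powers of e, each difference is 0.69 times the printed one. Levels are not comparable between probe sets, so each gene is compared only with itself across arrays. The number of arrays, 3 in each of 2 groups, limits the precision.

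The arrays differed in more than genotype, and Mef2c-deficient replicate 3 stood apart. Of the B-lineage markers, the B-cell receptor component gene Cd79b had levels of 18.76 to 19.22 in controls and 18.20 to 19.06 in Mef2c-deficient arrays. The medians of 9 B-lineage and pre-B marker probe sets relative to the control mean were -0.79, -0.87 and -1.10 in Mef2c-deficient replicates 1 to 3. Markers of plasmacytoid dendritic cells, which can also carry B220, had medians of 0.56, 1.53 and 3.81 in the same order, against -0.57, -0.23 and 0.66 in the controls. Their summed level, log2 of the sum of 8 probe sets of 7 genes, ran from 13.83 to 16.20 in controls and from 15.36 to 19.66 in Mef2c-deficient arrays. The 10 neutrophil and monocyte probe sets had a summed level of 15.23 to 17.55 in controls and 15.53 to 20.42 in Mef2c-deficient arrays, the highest in replicate 3. T-cell, NK-cell and erythroid markers also had their highest medians, 2.08 to 2.32, in that array. Each of these lists has only 4 probe sets, of which 2, 1 and 2 in that order were too dim to be tested. The mature B-cell markers had their highest median, 2.04, in Mef2c-deficient replicate 2. The 7 probe sets of dividing-cell genes had medians of -1.34, -3.34 and -2.04 in the Mef2c-deficient arrays. Probe sets of the bacterial bioB transcript, added to each sample as a hybridisation control, had mean differences of 1.66 to 1.84. The part of these shifts in the results below was not tested, and values without replicate 3 are given where they matter.

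**Figure D1:**
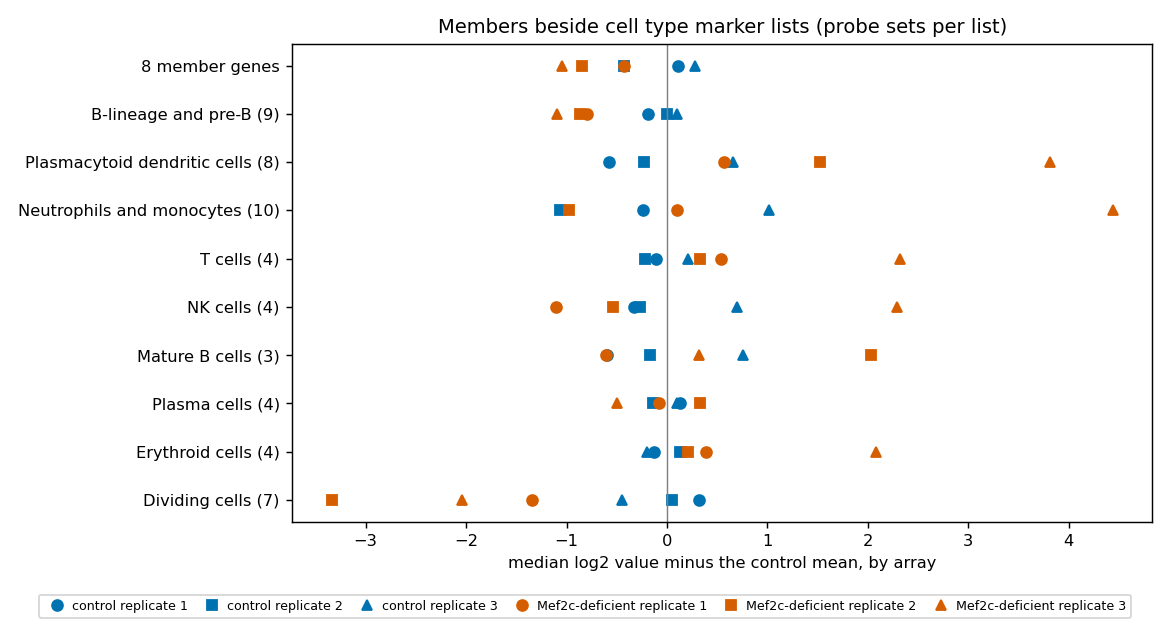
Median over the probe sets of each list (number in parentheses) of the log2 level less that gene's control mean, on the horizontal axis. Blue symbols are the 3 control arrays and orange symbols the 3 Mef2c-deficient arrays, shaped by replicate. The 8 genes of the PI3K and Akt group had medians of -0.43, -0.85 and -1.04 in Mef2c-deficient replicates 1 to 3, and the plasmacytoid dendritic cell list lay highest in replicate 3 of each group.

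All 8 genes had lower mean levels in Mef2c-deficient pre-B cells than in control pre-B cells, as did 62.4% of all probe sets tested. The differences ran from -1.75 for Mtor to -0.34 for the lipid phosphatase gene Inpp5d, with a median of -0.64 against -0.36 over all 11442 probe sets tested. That second median depended on the level: over 10 equal bins of mean level it ran from 0.33 to -0.70. It was -0.60 in the bin of Pik3cd, Pik3ap1 and Inpp5d, -0.66 in that of Akt1 and -0.50 in that of Pik3r1. For Mtor it was -0.44, and for the dimmer Pik3ca and Akt2 it was 0.20 and 0.33. Mtor, Akt1 and Pik3ca were lower in every Mef2c-deficient array than in every control array. In the remaining 5 genes the groups overlapped.

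With limma, 0 of the 8 genes passed an adjusted p of 0.05. Of all probe sets tested, 0.0175% were called lower and 0% higher, and with the replicate number as a block 0 were called. At an unadjusted p under 0.05, 3 of the 8 genes were lower and 0 were higher, where 20.8% of all probe sets were lower and 5.29% higher, and the methods' t-test gave 2 (Mtor and Akt1). The groups did not overlap, with lower values in Mef2c-deficient arrays, in the same 3 genes, beside 27% of all probe sets (10.5% did not overlap in the other direction). With 8 genes, these shares are descriptions and do not set the group apart from the rest of the array. By array, control replicate 3 held the highest level of 6 of the 8 genes, and no control array held the lowest level of any. The lowest level was in Mef2c-deficient replicate 2 for 4 genes, in replicate 3 for 3 and in replicate 1 for 1.

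**Figure D2:**
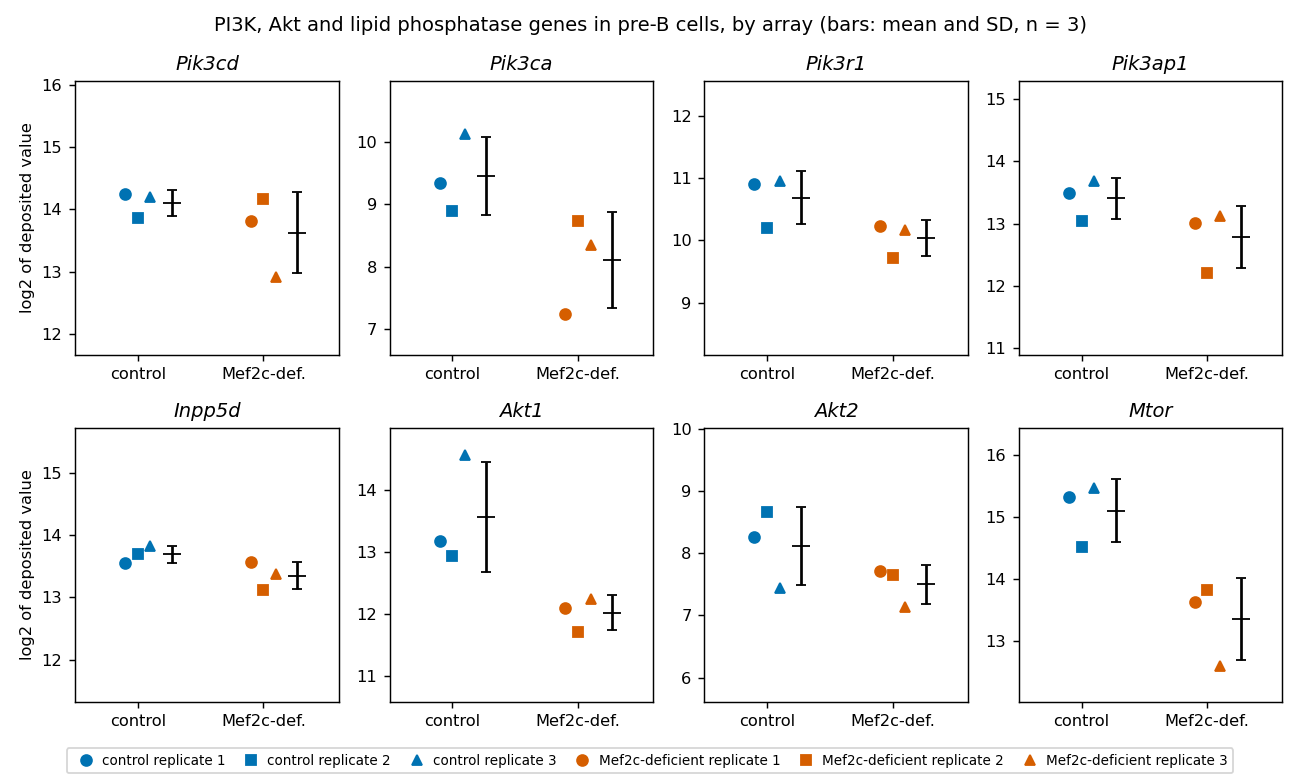
Log2 of the deposited value (vertical axis, spanning the same range in each panel) of 8 PI3K and Akt pathway genes by group, with control arrays in blue, Mef2c-deficient arrays in orange, 1 shape per replicate, and bars for the mean and SD (n = 3). In Mtor, Akt1 and Pik3ca every Mef2c-deficient array lay below every control array, and in the other 5 genes the groups overlapped.

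Among the catalytic subunits, Pik3ca encodes the alpha isoform, which is made in most tissues, and Pik3cd the delta isoform, which prevails in lymphocytes. Pik3ca had levels of 9.35, 8.89 and 10.14 in control replicates 1 to 3 and of 7.24, 8.73 and 8.35 in Mef2c-deficient replicates 1 to 3. The groups were separated by a narrow gap, between control replicate 2 and Mef2c-deficient replicate 2. Mef2c-deficient replicate 1 was lowest and lay just below 7.26, the mean level that a probe set had to exceed to be tested. Its means were 9.46 ± 0.63 and 8.11 ± 0.77 (SD, n = 3 each), a difference of -1.35 (SE 0.49, 95% confidence interval -2.50 to -0.21, limma adjusted p = 0.154). This is a 2.55-fold lower value as deposited and 1.91-fold lower on the base of e. Without Mef2c-deficient replicate 1 the difference was -0.92. Pik3ca was among the dimmer probe sets, in the third of 10 equal bins of mean level, where the median difference of all probe sets was 0.20.

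Pik3cd had levels of 14.25, 13.86 and 14.20 in the controls and of 13.81, 14.16 and 12.91 in the Mef2c-deficient arrays. Mef2c-deficient replicate 2 lay within the range of the controls, and replicate 3 lay lowest. The means were 14.10 ± 0.22 and 13.63 ± 0.65 (SD, n = 3 each). The difference was -0.48 (SE 0.38, 95% confidence interval -1.37 to 0.42, limma adjusted p = 0.398). It was -0.12 without Mef2c-deficient replicate 3, the array with the highest plasmacytoid dendritic cell and myeloid markers, and -0.07 without replicate 3 of both groups. After cyclic loess it was 0.05, so the size for this isoform depends on a single array and the direction on the scaling. At this number of arrays the data bound a difference in Pik3cd only to the interval given.

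Pik3r1 encodes a regulatory subunit that stabilises the catalytic subunits and tethers them to phosphorylated receptors, and Pik3ap1 encodes BCAP, a B-cell adaptor that recruits PI3K. Pik3r1 had levels of 10.90, 10.20 and 10.96 in the controls and 10.23, 9.72 and 10.17 in the Mef2c-deficient arrays. Control replicate 2 lay slightly below Mef2c-deficient replicate 1, and the other arrays were ordered by group. The difference in Pik3r1 was -0.65 (SE 0.33, 95% confidence interval -1.42 to 0.12, limma adjusted p = 0.238), and it was -0.30 after cyclic loess. Pik3ap1 had levels of 13.49, 13.04 and 13.68 in the controls and 13.00, 12.21 and 13.13 in the Mef2c-deficient arrays. The groups overlapped between control replicate 2 and Mef2c-deficient replicate 3, and Mef2c-deficient replicate 2 was the lowest array. The difference in Pik3ap1 was -0.63 (SE 0.36, 95% confidence interval -1.46 to 0.21, limma adjusted p = 0.271). Without Mef2c-deficient replicate 2 it was -0.34, and after cyclic loess -0.07. Within pairs of arrays of the same replicate number, both genes had lower levels in the Mef2c-deficient array in all 3 pairs. Pik3cd was higher in the Mef2c-deficient array of pair 2 (0.31), and Inpp5d in that of pair 1 (0.01). The share of all probe sets lower in all 3 pairs was not computed. It includes the 27% of all probe sets whose groups did not overlap in that direction.

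Inpp5d encodes SHIP1, a blood-cell phosphatase that removes the 5-phosphate from the lipid product of PI3K and restrains receptor signalling in B cells. Its levels were 13.55, 13.70 and 13.82 in the controls and 13.56, 13.12 and 13.37 in the Mef2c-deficient arrays. These were the tightest levels among the 8 genes, with an SD of 0.14 in controls and 0.22 in Mef2c-deficient arrays. The groups overlapped, with control replicate 1 and Mef2c-deficient replicate 1 at nearly the same level. The difference was -0.34 (SE 0.27, 95% confidence interval -0.98 to 0.30, limma adjusted p = 0.400), which lies 0.02 from the median of all probe sets tested. In its bin of mean level that median was -0.60. The difference in Inpp5d was 0.05 after quantile normalization and 0.20 after cyclic loess, so no direction can be given for this gene. Its probe set is of the kind that can match several transcripts of a gene.

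Akt1 and Akt2 encode serine and threonine kinases that act after PI3K, Akt1 being the form most tied to growth and survival and Akt2 that most tied to glucose handling. Akt1 had levels of 13.17, 12.94 and 14.56 in the controls and of 12.10, 11.71 and 12.25 in the Mef2c-deficient arrays. Every Mef2c-deficient array lay below every control array, and control replicate 3 lay well above the other controls. The means were 13.56 ± 0.88 and 12.02 ± 0.28 (SD, n = 3 each). The difference was -1.54 (SE 0.46, 95% confidence interval -2.62 to -0.45, limma adjusted p = 0.127), a 2.90-fold lower value as deposited and 2.09-fold lower on the base of e. Without control replicate 3 it was -1.03, and after cyclic loess -0.98. The median difference of all probe sets in its bin of mean level was -0.66.

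Akt2 was dim, in the second of the 10 bins, with levels of 8.26, 8.67 and 7.44 in the controls and 7.72, 7.65 and 7.14 in the Mef2c-deficient arrays. Control replicate 3, the highest array for Akt1, was the lowest control array for Akt2 and lay below Mef2c-deficient replicates 1 and 2. The difference was -0.62 (SE 0.39, 95% confidence interval -1.52 to 0.29, limma adjusted p = 0.302). It was -0.96 without control replicate 3, -0.34 without control replicate 2 and -0.32 after centring each array on its median. In all 3 pairs of the same replicate number the Mef2c-deficient array had the lower level of both kinase genes. The differences were -1.06, -1.23 and -2.32 for Akt1 and -0.54, -1.02 and -0.30 for Akt2. As for Pik3r1 and Pik3ap1, the share of all probe sets with this order was not computed. Whether Akt1 and Akt2 differ in their response was not tested.

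Mtor encodes the kinase at the core of both mTOR complexes, which joins Akt signalling to nutrient supply and drives protein synthesis and growth. It had the most negative difference among the 8 genes. Its levels were 15.32, 14.52 and 15.45 in the controls and 13.63, 13.82 and 12.59 in the Mef2c-deficient arrays. The lowest control array lay above the highest Mef2c-deficient array, and Mef2c-deficient replicate 3 was lowest. The means were 15.10 ± 0.51 and 13.35 ± 0.66 (SD, n = 3 each). The difference was -1.75 (SE 0.43, 95% confidence interval -2.76 to -0.74, limma adjusted p = 0.104), a 3.36-fold lower value as deposited and 2.32-fold lower on the base of e. It was -1.37 without Mef2c-deficient replicate 3 and -1.19 without replicate 3 of both groups. Of all probe sets tested, 2.99% had a more negative difference. Array weights, which count a scattered array for less, gave a limma adjusted p of 0.0364 for Mtor. Under that setting 1157 probe sets passed, and the weight was 7.71 for control replicate 1 and 0.25 for Mef2c-deficient replicate 3. Over the other alternatives run, the adjusted p of Mtor lay above 0.05.

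**Figure D3:**
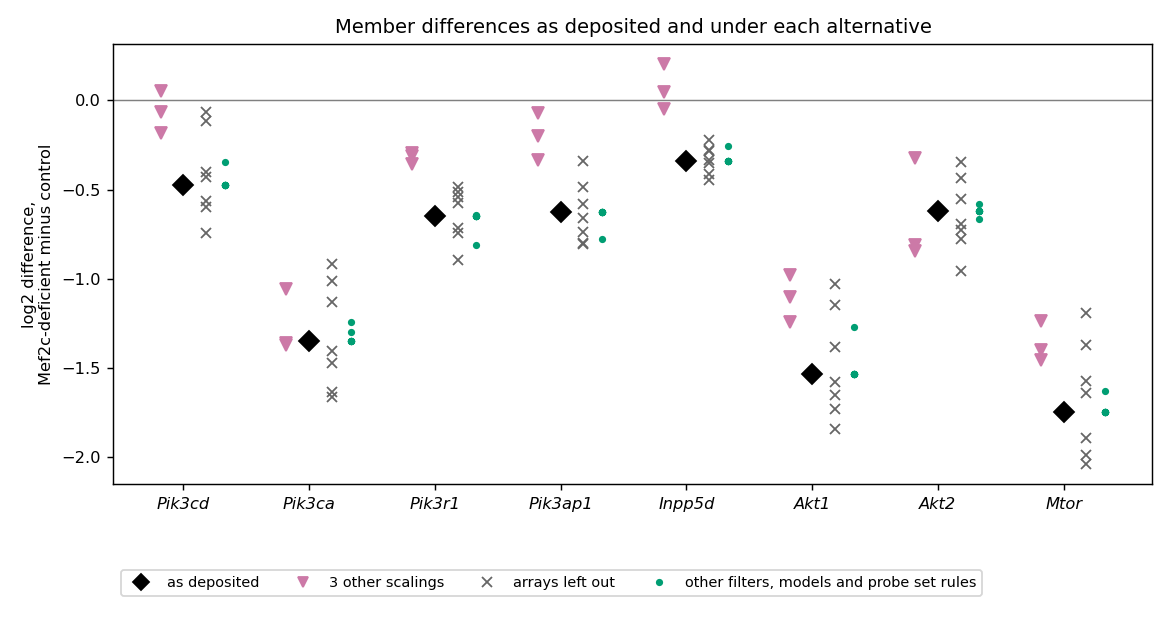
Log2 difference, Mef2c-deficient minus control (vertical axis), of each gene with the values as deposited (black), under 3 other scalings of the arrays (pink), with arrays left out (grey crosses) and under other filters, models and probe set rules (green). Mtor ranged from -2.04 to -1.19, Akt1 from -1.84 to -0.98 and Pik3ca from -1.66 to -0.92, while Pik3cd and Inpp5d reached values above 0.

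To show the control regions of the 3 genes whose groups did not overlap, the 250 bases before an annotated start of each are printed from RefSeq (GRCm38.p6), 5′ to 3′ on the strand of the gene, in lower case. Capitals mark a match to 1 of 4 motifs searched on both strands: MEF2 (CTANNNNTAG), forkhead, the family motif of FoxO (TGTTTAC), the E-box bound by Tcf3 products (CAGGTG) and EBF (TCCCNNGGGA). Mtor lies at chr4:148448332-148448581 on the plus strand, Pik3ca at chr3:32396815-32397064 on the plus strand, and the start of Akt1 that holds a match at chr12:112674885-112675134 on the minus strand.
Mtor: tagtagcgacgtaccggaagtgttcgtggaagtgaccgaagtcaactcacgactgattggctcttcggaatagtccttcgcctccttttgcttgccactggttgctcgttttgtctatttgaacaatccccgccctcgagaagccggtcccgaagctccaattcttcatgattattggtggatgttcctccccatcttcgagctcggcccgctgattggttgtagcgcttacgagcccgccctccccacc
Pik3ca: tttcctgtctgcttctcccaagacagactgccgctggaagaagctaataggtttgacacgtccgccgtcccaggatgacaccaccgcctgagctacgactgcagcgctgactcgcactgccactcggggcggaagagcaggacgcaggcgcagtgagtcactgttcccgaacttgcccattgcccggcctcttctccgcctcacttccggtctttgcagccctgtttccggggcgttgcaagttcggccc
Akt1: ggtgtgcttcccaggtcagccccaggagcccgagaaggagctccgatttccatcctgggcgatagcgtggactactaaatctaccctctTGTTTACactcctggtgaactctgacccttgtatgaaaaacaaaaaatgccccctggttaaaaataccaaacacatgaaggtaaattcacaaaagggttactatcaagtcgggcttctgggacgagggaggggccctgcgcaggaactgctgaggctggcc
The forkhead letters lie 161 bases before this start of Akt1. Of 16 promoter windows of the 9 genes, 1 held the forkhead letters, 3 the E-box letters (2 starts of Pik3cd and that of Pik3ap1), 0 the MEF2 letters and 0 the EBF letters. Of all 32851 windows of this length, 3.17% held the forkhead, 17.2% the E-box, 3.20% the MEF2 and 0.779% the EBF letters. A match is a description of the letters and not a site of binding, and a window without one says nothing about more distant elements.

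The rest of the pathway was read from 7 lists of 71 genes by role, of which 62 had a probe set with 1 symbol and 58 passed the filter on dim probe sets. Of these 58, 47 had lower means, beside 62.4% of all probe sets tested. Their median difference was -0.72, beside -0.36 for all probe sets tested. That second median ran from 0.33 to -0.70 over the 10 bins of mean level, and the lists were not matched for level. The 2 medians are therefore a description and do not set the pathway apart. With limma 0 passed an adjusted p of 0.05. At an unadjusted p under 0.05, 17 were lower and 1 higher (20.8% and 5.29% of all probe sets), and the methods' t-test gave 12 and 0. The higher gene was Eif4ebp1. With the replicate number as a block, 19 were lower and 3 higher (Eif4ebp1, Inpp4a and Prr5), beside 23.0% and 6.66% of all probe sets in that fit. After cyclic loess 6 were lower and 5 higher (Akt1s1, Inpp5f, Pik3ip1, Pik3r5 and Prr5), when 10.2% of all probe sets were lower and 8.22% higher. Counts of lower and higher genes thus moved with the scaling, in the pathway and over all probe sets.

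Of 4 tested adaptor genes that couple receptors to PI3K, 3 had lower means, beside 62.4% of all probe sets tested. Irs1 had the most negative difference in the 7 lists. Irs1, the insulin receptor substrate that docks PI3K, had levels of 9.86, 9.66 and 10.05 in the controls and 5.25, 7.70 and 5.10 in the Mef2c-deficient arrays. The groups were far apart, and Mef2c-deficient replicates 1 and 3 lay below the level of 7.26 that the filter set for the mean. The difference was -3.84 (SE 0.67, limma adjusted p = 0.0765). Irs1, Gab1 and Pik3r3 passed the filter through their control arrays, with Mef2c-deficient means of 6.02, 6.87 and 6.85 below that level, so their differences rest on values not shown to be above background. Gab2 and Gab1, scaffold genes that bind the regulatory subunit, had differences of -2.26 (SE 0.54, limma adjusted p = 0.101) and -1.60 (SE 0.37, limma adjusted p = 0.0961), with no overlap of groups in either. Irs2 had a difference of 0.61 (SE 0.84), with levels of 14.53 and 14.42 in Mef2c-deficient replicates 1 and 2 and 11.24 in replicate 3, and without replicate 3 it was 1.69.

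Of 7 tested genes for other PI3K subunits and relatives, 5 had lower means, beside 62.4% of all probe sets tested. The regulatory subunit gene Pik3r3 had a difference of -1.30 (SE 0.37, limma adjusted p = 0.118), with control levels of 8.13, 8.10 and 8.21 and Mef2c-deficient levels of 6.93, 7.45 and 6.17. Pik3cg, the catalytic gamma subunit of blood cells, and Pik3c2a, a class II kinase, had differences of -0.59 (SE 0.27) and -0.78 (SE 0.44). Pik3ip1, whose product inhibits PI3K, had a difference of 0.64 (SE 0.37). Of 9 tested genes for other phosphatases of inositol lipids or inositol phosphates, 6 had lower means, a share near the 62.4% of all probe sets. Inpp5e had a difference of -0.79 (SE 0.27, limma adjusted p = 0.141), with Mef2c-deficient levels of 12.70, 12.67 and 12.64 below control levels of 13.24 to 13.63. The other phosphatases named by smallest unadjusted p were Synj2 at -1.06, Inpp5k, whose probe set can match other genes, at -0.71 and Inpp5a at -1.11. Inpp4a, which acts on a further lipid of the cascade, was named after its value was seen: its difference was 1.44 (SE 0.72), and its highest level, 12.12, was in Mef2c-deficient replicate 3.

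Of 5 tested genes for direct regulators of Akt, 3 had lower means, a share near the 62.4% of all probe sets. In the limma fit 0 of the 5 were under an unadjusted p of 0.05. Pdpk1, the kinase that activates Akt, had a difference of -0.80 (SE 0.50), the phosphatase subunit gene Ppp2r1a -0.61 (SE 0.33), and the Akt phosphatase genes Phlpp1 and Phlpp2 -0.68 (SE 0.46) and 0.42 (SE 0.58). Beside Mtor, 12 of 15 tested genes of the mTOR complexes, the TSC complex and their targets had lower means, beside 62.4% of all probe sets. At an unadjusted p under 0.05, 4 were lower and 1 higher, beside 20.8% and 5.29% of all probe sets, so these counts do not set the list apart. Rictor and Mapkap1, subunits of mTOR complex 2, had differences of -1.02 (SE 0.40) and -1.14 (SE 0.41). Tsc1, which restrains mTOR, had a difference of the same sign, -1.18 (SE 0.48), and Eif4e, the cap-binding factor downstream of mTOR, -0.91 (SE 0.27). The limma adjusted p of these 4 genes lay between 0.123 and 0.179. Eif4ebp1, a repressor of cap-dependent translation, had a difference of 1.02 (SE 0.42), and Prr5, a subunit of mTOR complex 2, 1.35 (SE 0.78), both named after their values were seen.

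All 6 tested Akt substrate genes had lower means, beside 62.4% of all probe sets tested. At an unadjusted limma p under 0.05, 1 was lower and 0 higher, beside 20.8% and 5.29% of all probe sets. Gsk3b, a kinase that Akt inhibits, had levels of 13.63, 12.95 and 14.10 in the controls and of 12.36, 12.37 and 12.43 in the Mef2c-deficient arrays, a difference of -1.17 (SE 0.35, limma adjusted p = 0.125). The FoxO factor genes Foxo1 and Foxo4 had differences of -0.68 (SE 0.44) and -0.80 (SE 0.66), with overlapping groups in both. Of 14 genes listed as FoxO targets, 13 had lower means and 6 were lower at an unadjusted p under 0.05, beside 62.4% and 20.8% of all probe sets tested. Those shares pool dim and bright probe sets, and the list was not matched for level. With 14 genes the counts are descriptions, and whether they set the list apart was not tested. The cyclin gene Ccng2 had a difference of -1.42 (SE 0.42, limma adjusted p = 0.121), the pro-death gene Bcl2l11 -1.37 (SE 0.38, limma adjusted p = 0.115) and the stress gene Gadd45a -1.02 (SE 0.28, limma adjusted p = 0.113). In these 3 genes every Mef2c-deficient array lay below every control array. For Bcl2l11 the Mef2c-deficient levels, 7.28 to 7.47, lay just above the filter's level of 7.26, and signal over background is not known there. The interleukin 7 receptor gene Il7r had a difference of -1.09 (SE 0.29). The recombinase genes Rag1 and Rag2, named outside the rule of smallest p, had differences of -1.18 (SE 0.45) and -1.40 (SE 0.55). Their limma adjusted p was 0.161 and 0.170, and the groups overlapped in Rag2. Other listed targets, Sesn3 and S1pr1, had differences of -0.26 and -0.05, and Irs2 had the higher mean (0.61). Il7r and Rag1 also belong to the B-lineage and pre-B markers described above, so the 2 lists are not independent.

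**Figure D4:**
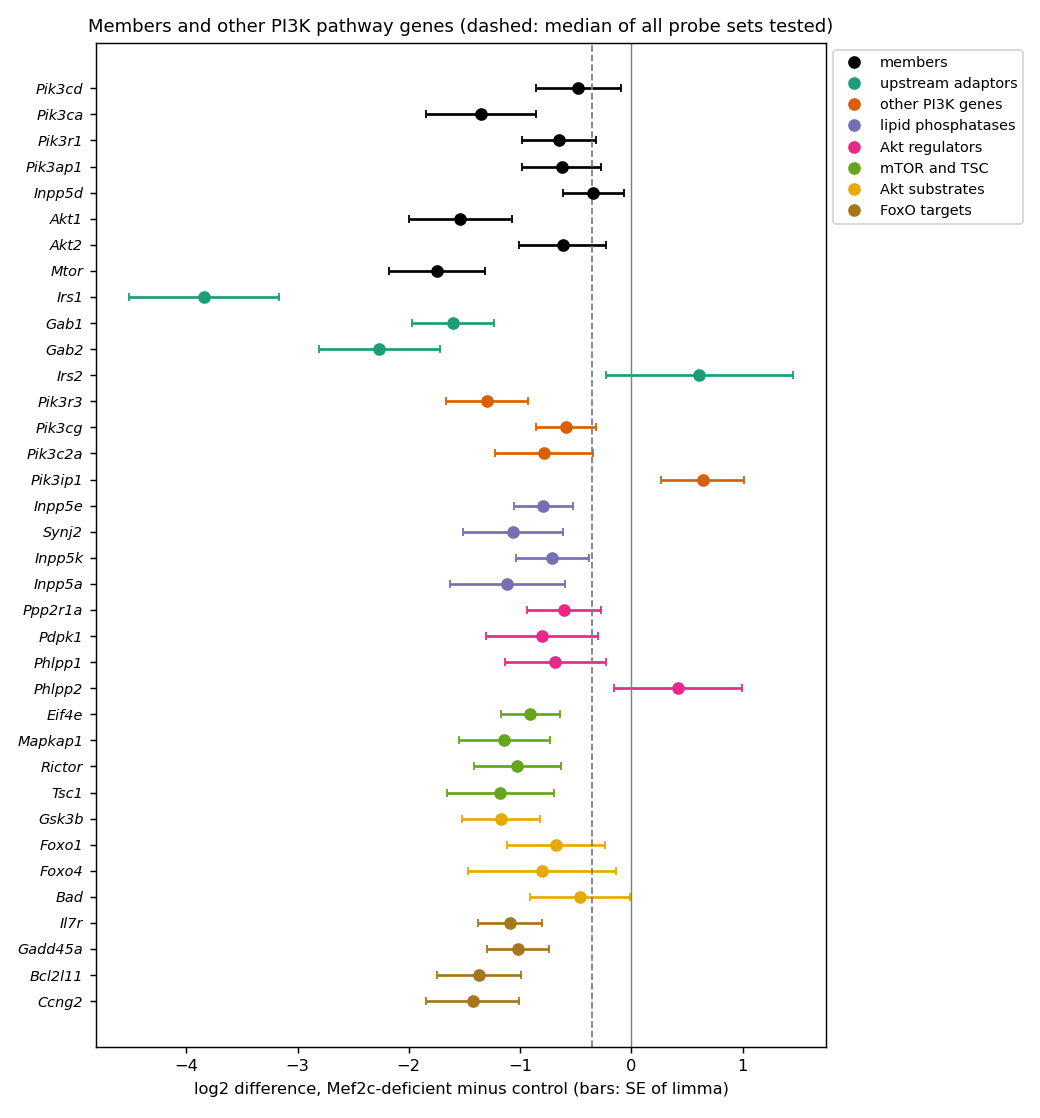
Log2 difference, Mef2c-deficient minus control, with the SE of limma (horizontal axis) for the 8 genes with a probe set (black) and for up to 4 genes of each pathway list with the smallest unadjusted p (colours), so that the coloured genes are chosen on the values shown. Irs1 lay at -3.84, Gab2 at -2.26 and Mtor at -1.75, and the dashed line marks the median of all probe sets tested at -0.36.

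Across the 6 arrays, the probe sets most like Pik3cd were those of Xpo6, Dcaf4 and Phlpp1, with Pearson's r of 0.995, 0.994 and 0.994. Those most like Inpp5d were 2210016F16Rik, Atxn7l1 and Wdr83, with r of 0.993, 0.991 and 0.985. These r describe 6 arrays that share processing and the difference between groups, and 619 probe sets had an r above 0.9 with Pik3cd and 165 with Inpp5d.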

How the data were processed

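RNA from sorted pre-B cells was hybridised to 1 array per sample, 3 control and 3 Mef2c-deficient, grouped by the genotype labels. The authors deposited intensity values on a linear scale, made per the study's methods by robust multiarray averaging (background adjustment, quantile normalization and probe set summary), with limma for differential expression and detection calls to leave out probes. No source used here gives versions of these tools. The table holds part of the array.

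Values were log2-transformed without offset. Of 23913 probe sets, 17689 had 1 symbol in the platform annotation, which can be old, 524 had several and 5699 were not listed. The symbols of the 8 genes measured matched RefSeq by gene identifier. Probe sets with 1 symbol and a mean above the 40th percentile (log2 of 7.26) were tested (11442 probe sets of 11271 genes), and all 8 genes passed this filter. The test was limma 3.58.1, run in R 4.3.3 (lmFit and eBayes, two-sided, Benjamini-Hochberg over all probe sets tested, threshold 0.05). The code was tried on simulated data with equal spread in both groups. In the real arrays the SD of deviations was 0.29 to 0.47 in controls and 0.56 to 0.79 in Mef2c-deficient arrays. The simulation therefore does not show how the test behaves on these arrays. The genes and lists were chosen with earlier results of these data known. Named pathway genes were up to 4 per list by smallest unadjusted p, and the 3 probe sets most like Pik3cd and Inpp5d by Pearson's r. Some other FoxO targets, genes marked as named after their values were seen and genes listed with a count were named outside this rule. Foxo3 and some list genes were not analysed here.

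Arrays that share a replicate number had correlated deviations from the group mean (0.346, 0.227 and 0.370 in the 3 pairs). Arrays of unlike number had correlations from -0.305 to 0.126. The numbers, which the labels give, were therefore read as pairs. This reading rests on the same data, and the labels do not say what a shared number stands for. Alternatives were other filters and scalings, rules on probe sets, an offset of 16 before log2, the variance model, array weights, the replicate block, the methods' t-test and leaving out arrays. Leaving out replicate 3 of both groups was chosen after seeing the data.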

Additional observations from a re-analysis of the deposited data

How the results depend on the processing

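Mtor, Akt1 and Pik3ca kept negative differences under every alternative that tested them, as did Pik3r1, Pik3ap1 and Akt2 (Pik3ca and Akt2 did not pass the 60th percentile filter). Inpp5d turned to 0.0490 after quantile normalization and 0.20 after cyclic loess, and Pik3cd to 0.0528 after cyclic loess. The count of the 8 genes at an adjusted p under 0.05 was 0 except with array weights, which gave 1 (Mtor), and the count of lower genes at an unadjusted p under 0.05 was 3, but 5 with array weights, 2 with the 60th percentile filter and with the methods' t-test, and 2 to 4 with single arrays left out. Of the 58 other pathway probe sets, 0 passed an adjusted p of 0.05, against 8 with array weights and 0 to 2 with arrays left out (Irs1 without Mef2c-deficient replicate 2, where both arrays left in that group lie below the filter's level, Ccng2 and Gab2 without Mef2c-deficient replicate 3). Those lower at an unadjusted p under 0.05 numbered 17, but 8 after quantile normalization, 6 after cyclic loess, 9 after centring and 11 to 19 with arrays left out, the fewest without control replicate 1. Those higher numbered 1, but 0 with the 60th percentile filter and with the methods' t-test, 3 after quantile normalization, 5 after cyclic loess, 3 after centring, 4 with array weights, 3 with the replicate block and 0 to 2 with arrays left out. The replicate block changed no call at an adjusted p under 0.05 among these genes. The causes were not tested. Signal over background is not known for these values, so the bound on dim genes such as Akt2 and Irs1 is not known either.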
